A study of Mus musculus with 24 samples.

Results

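Glutamatergic projection neurons of the mouse primary motor cortex were compared between late and early motor skill learning. Neurons were chosen cell by cell from raw counts of unique molecular identifiers (UMIs, the tags that count captured RNA molecules). A cell entered with at least 1 UMI of Slc17a7, the vesicular glutamate transporter of cortical excitatory neurons, with 0 UMIs of Gad1 and Gad2, which make GABA, and with at least 1 UMI of Cux2, Rorb, Fezf2 or Foxp2. These 4 transcription factors mark, in order, upper layer neurons, layer 4 and 5 intratelencephalic neurons, deep layer subcerebral and related neurons, and layer 6 corticothalamic neurons. Of 35672 cells kept in the 8 late and early libraries, 11645 passed the glutamatergic gate and 7974 of those carried a layer marker, against 47985 cells kept in all 12 motor cortex libraries. They are called layer-marked neurons here, and comprised 2709 Cux2, 2921 Rorb, 3083 Fezf2 and 2631 Foxp2 neurons, with cells of several markers counted in each.

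All mice carried Fos-CreER::Ai9, in which activity at the Fos promoter together with 4-hydroxytamoxifen switches on a permanent tdTomato reporter in any Fos-expressing cell. Early mice had reached with a forelimb for 2 days and late mice for 8 days when the drug was given, and cortex was taken 3 days later. Contralateral and ipsilateral hemispheres were pooled separately from 2 mice, dissociated with papain and sequenced by 10x Genomics 3′ chemistry. Each stage had 2 such pools, with hemispheres summed here to 1 value per pool, so that the pool is the replicate. Ages were not given, and untrained control pools were used only where named.

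Cortical skill learning is classically tied to changes in intratelencephalic and corticospinal projection neurons, in which synaptic activity first induces immediate early genes such as Fos, Arc and Egr1 and then slower effector genes. The transcripts of the first group last for minutes to hours. In tissue taken days after labelling they therefore report recent activity, including that of handling and dissociation, while the recombined reporter persists.

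The 8 libraries held 4030 to 8477 barcodes and 16801721 to 29350160 UMIs. Per pool there were 1506, 2042, 2069 and 2357 layer-marked neurons in early pool 1, early pool 2, late pool 1 and late pool 2, an order kept for every run of 4 values below. Their median depth was 13195, 5580.5, 8654 and 7096 UMIs, and 31.9% to 49.9% of them carried more than 1 marker. The chemistry was version 2 or 3 of the kit, not given per library. Libraries of late pool 1 and of 1 control pool shared 272 cell barcodes with each other over 6 library pairs, the other pools' libraries shared 153 over 28 pairs, and only 20 were shared over the 32 pairs between these sets. Late pool 1 is therefore treated as made with another kit, and the comparisons are also made for late pool 2 alone against both early pools, which share a kit by this measure. Each of the 4 pools also had a sequencing batch of its own, so batch and pool cannot be told apart.

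Markers that the gate did not use followed the names in part. All 8 upper layer markers were highest in Cux2 neurons and 6 of 8 layer 4 and 5 intratelencephalic markers in Rorb neurons, the other 2, Deptor and Etv1, being highest in Fezf2 neurons. Of 10 other layer 5 markers, 6 were highest in Fezf2 neurons, 2 (Bcl11b and Crym) in Foxp2 neurons and 2 (Pou3f1, at 116 CPM against 11.0 in Fezf2 neurons, and Npr3) in Cux2 neurons. Of 10 layer 6 markers, 6 were highest in Foxp2 neurons and 4 (Ctgf, Nxph4, Cplx3 and Tox) in Fezf2 neurons. Among the leading ones, Calb1, Lamp5 and Rasgrf2, of upper layers, were highest in Cux2 neurons (376, 486 and 202 CPM, UMIs scaled to the total of the summed cells). Rspo1 and Plcxd2 were highest in Rorb neurons (77.5 and 180 CPM), Tshz2 in Fezf2 neurons (262 CPM), and Rprm and Syt6 in Foxp2 neurons (1078 and 115 CPM). Chrna6, a marker of a rare layer 5 type, was at 0 in Cux2 and Rorb neurons. The sets overlap, with 45.8% of Cux2 neurons also marked by Rorb and 50.3% of Fezf2 neurons also marked by Foxp2. Summed microglia markers stood at 86.7, 50.6, 175 and 47.8 CPM in layer-marked neurons, and 34.7%, 11.9%, 40.7% and 15.7% of the cells had at least 2 UMIs of non-neuronal markers. Early pool 1 and late pool 1, whose layer-marked neurons were deepest, were highest in both. In all other cells kept, summed microglia markers stood at 7945.3, 4791.82, 13102.5 and 4816.35 CPM. Summed astrocyte markers ran otherwise, at 1264, 1165, 1019 and 1417 CPM, lowest in late pool 1 and highest in late pool 2. Refitted without cells holding at least 2 non-neuronal UMIs, 83 of 86 changes of genes named in layer-marked neurons moved by less than their standard error and the other 3 by more, with none called before or after.

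The first question was whether the make-up of the sampled neurons differed between stages. Cux2 neurons were 37.6%, 36.2%, 34.8% and 29.0% of layer-marked neurons, both late pools below both early pools. Their share was 31.9% ± 4.15 late (SD, n = 2) and 36.9% ± 0.985 early (SD, n = 2), with a two-sided exact permutation p of 0.333, the smallest that 2 pools against 2 can give. After thinning each cell to 2000 UMIs the shares were 25.3% and 29.4%. Rorb neurons took 36.5% late and 37.0% early, Fezf2 neurons 40.6% and 37.4%, and Foxp2 neurons 33.1% and 32.9%, with overlapping pools in all 3. Fezf2 neurons varied most between early pools, at 45.5% and 29.4%. Shares in dissociated tissue count recovered cells.

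The reporter transcript, read through its wpre element, was found in 28.9%, 13.9%, 22.8% and 13.9% of layer-marked neurons. The stages overlapped, with a mean of 18.3% ± 6.32 late (SD, n = 2) and 21.4% ± 10.6 early (SD, n = 2). Cells defined by microglia markers, for comparison, gave 10.1%, 5.22%, 7.51% and 3.19%, and like the neurons were highest in early pool 1 and late pool 1. These pools were the deepest for layer-marked neurons. Over all cells kept, the libraries of late pool 1 had the lowest median depth, at 2023 and 2100 UMIs. Thinned to 2000 UMIs, layer-marked neurons gave 7.37% late and 7.75% early, beside 6.28% and 6.0% in microglia marker cells. Thinned Cux2 neurons gave 10.3% late and 9.04% early, thinned Rorb neurons 8.61% and 9.55%, and thinned Foxp2 neurons 5.85% and 6.32%. Thinned Fezf2 neurons gave 6.60%, 7.50%, 4.15% and 5.61%, both late pools below both early pools, with 4.88% ± 1.03 late and 7.05% ± 0.637 early (SD, n = 2 each, exact permutation p = 0.333, the smallest possible). These shares rest on 197, 200, 265 and 285 cells, and the late mean lay below that of thinned microglia marker cells. Unthinned Fezf2 neurons gave 29.3%, 15.8%, 22.8% and 14.7%, with overlapping stages. With at least 2 wpre UMIs required, layer-marked neurons gave 7.84%, 3.43%, 7.10% and 1.82% and microglia marker cells 1.33%, 0.681%, 0.568% and 0.152%, so the neurons were higher in every pool. Cells were not thinned for this threshold, so depth was not matched between the neurons and the microglia marker cells. Stages overlapped in the neurons under this threshold as well. The tdtomato feature itself was found in 0.730%, 0.392%, 0.193% and 0.382% of layer-marked neurons, which is 11, 8, 4 and 9 cells. Both late pools lay below both early pools, with means of 0.288% ± 0.133 late and 0.561% ± 0.239 early (SD, n = 2 each, exact permutation p = 0.333), but early pool 2 and late pool 2 were within counting error of each other (95% Wilson intervals of 0.199% to 0.771% and 0.201% to 0.724%).

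Gene expression was then compared with edgeR's quasi-likelihood test on counts summed per pool, and genes with a p below 0.05 after Benjamini-Hochberg adjustment are termed called. Across all 4 pools no gene passed in layer-marked neurons (16660 tested, 0% called) or in Cux2 (13539 tested, 0%), Rorb (13609, 0%), Fezf2 (14530, 0%) or Foxp2 neurons (13592, 0%). Before adjustment, 208, 240, 216, 179 and 143 genes of these 5 sets had a p below 0.05. The numbers called by DESeq2 were 9, 4, 3, 2 and 3. With late pool 2 alone against both early pools, 13 of 17011 genes were called in layer-marked neurons (0.0764%), 19 of 13621 in Cux2 neurons (0.139%), 64 of 14040 in Rorb neurons (0.456%), 96 of 14789 in Fezf2 neurons (0.649%) and 128 of 14382 in Foxp2 neurons (0.89%). This comparison has 1 late pool, which is assumed to vary as the early pools do.

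Late pool 1 alone against the same early pools gave far longer lists, at 16.4%, 18.7%, 15.9%, 20.3% and 19.1% of the genes tested in layer-marked, Cux2, Rorb, Fezf2 and Foxp2 neurons. Kit and stage cannot be told apart there. Lars2 and Gm42418 are examples. Lars2, a mitochondrial leucyl-tRNA synthetase, stood at 6.02, 6.10, 3.20 and 6.95 log2 CPM in layer-marked neurons, low in late pool 1 alone. Gm42418, an RNA that overlaps ribosomal sequence, stood at 10.31, 10.74, 6.76 and 11.73 log2 CPM. Genes are therefore described below by whether both late pools lay on the same side of both early pools. That held upward for 11.5% and downward for 12.9% of genes in layer-marked neurons, 13.4% and 15.1% in Cux2, 13.4% and 14.2% in Rorb, 11% and 11.8% in Fezf2, and 10.6% and 11.8% in Foxp2 neurons, which is the background for each such statement.

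No immediate early gene was called between the stages in the 4 pools. Fos, a subunit of the AP-1 transcription factor, stood at 7.47, 7.44, 7.50 and 7.24 log2 CPM in layer-marked neurons, a late minus early change of -0.08 ± 0.19 (SE, as for all log2 changes below). Egr1, a zinc finger activity factor, stood at 9.43, 9.59, 9.46 and 9.44 log2 CPM, and Npas4, a factor induced by depolarisation, at 7.57, 7.88, 7.53 and 7.92. For all 3 genes the pools of the stages overlapped. Of 22 immediate early genes tested, 0 were called, 11 had a higher late mean, and the median change was -0.01, beside 0.00 over all genes. With late pool 2 alone 8 were higher, with a median of -0.10.

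Arc, which encodes a synaptic protein that promotes AMPA receptor endocytosis, stood at 7.41, 7.30, 7.92 and 6.80 log2 CPM in layer-marked neurons. As for Fos, late pool 1 was the highest of the 4 and late pool 2 the lowest, over a wider range, and the 4-pool change was 0.11 ± 0.38. Against both early pools, late pool 2 gave -0.57 ± 0.14 (adjusted p = 0.314). Within Foxp2 neurons Arc stood at 7.37, 7.13, 7.59 and 6.62 log2 CPM and fell by 0.64 ± 0.17 in late pool 2 (adjusted p = 0.0284). The changes of late pool 2 were -0.38 in Cux2 (adjusted p = 0.55), -0.69 in Rorb (adjusted p = 0.0593) and -0.57 in Fezf2 neurons (adjusted p = 0.129).

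Nr4a1, an orphan nuclear receptor induced by activity, had the same order, at 7.39, 7.33, 8.11 and 6.86 log2 CPM, with a 4-pool change of 0.26 ± 0.41 and -0.51 ± 0.14 for late pool 2 (adjusted p = 0.421). The reporter's wpre transcript did so too, at 6.12, 5.55, 6.35 and 4.68 log2 CPM, and late pool 2 differed from early by -1.20 ± 0.22 (adjusted p = 0.0849). In Rorb neurons wpre stood at 7.01, 5.69, 7.17 and 5.03 log2 CPM and differed by -1.50 ± 0.29 in late pool 2 (adjusted p = 0.00613), which lay below both early pools. The early pools differed from each other by nearly as much.

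**Figure D1:**
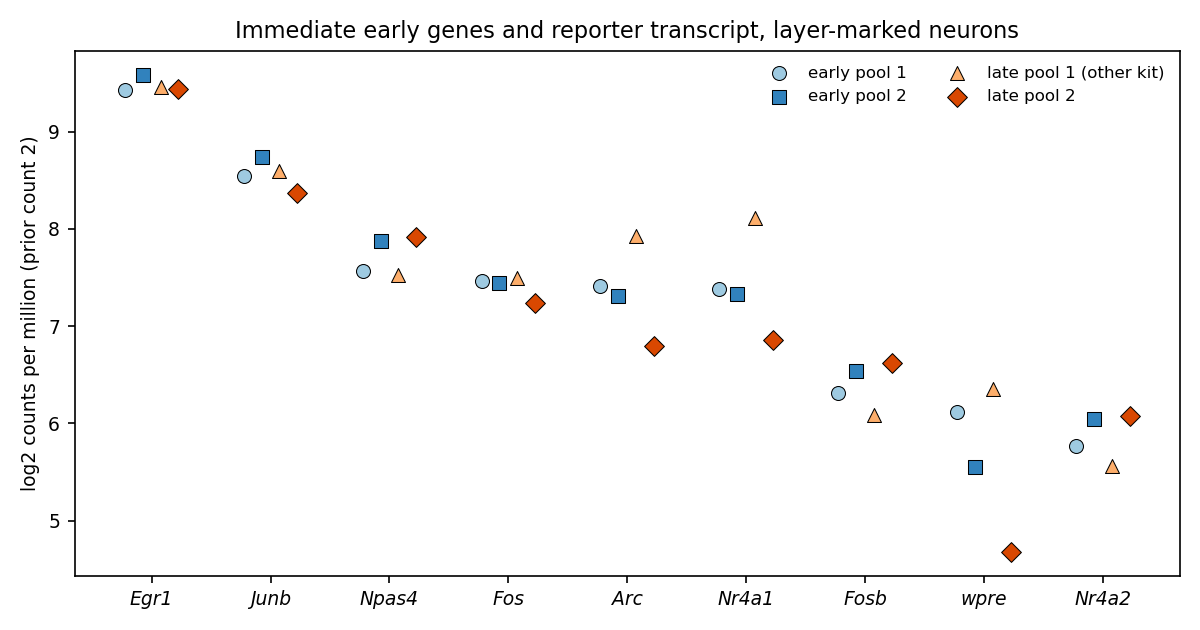
Level of 8 immediate early genes and the wpre reporter transcript in layer-marked neurons, in log2 CPM (y axis), with 1 symbol per pool and no averaging. Arc, Nr4a1, wpre and, over a narrow range, Fos are highest in late pool 1 and lowest in late pool 2, and the stages overlap for all 4 and for Egr1.

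Slower effectors gave no call in the 4 pools. Bdnf, the activity-regulated neurotrophin, stood at 7.12, 7.35, 7.43 and 7.04 log2 CPM, with overlapping stages. Gap43, a growth cone protein, had both late pools above both early pools (9.01, 8.84, 9.34 and 9.11 log2 CPM), a change of 0.30 ± 0.21, and 0.18 ± 0.15 with late pool 2. Camk2a, the alpha subunit of the synaptic calcium kinase, had both below (8.93, 8.97, 8.67 and 8.80 log2 CPM), a change of -0.21 ± 0.19, and -0.16 ± 0.14 with late pool 2. The 22 genes of this list split 11 up and 11 down, with a median of -0.01, and of -0.05 with late pool 2.

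Among the genes with both late pools above both early pools were copies of other genes. Processed pseudogenes arise when an mRNA is copied back into the genome, so they lack introns and can match their parent almost letter for letter. Gm11478, a copy of Rpl13a (a protein of the large ribosomal subunit), lies on GRCm38 at chr11:86630428-86631026, minus strand, and is 98.0% identical to the parent's transcript. Gm12254 copies Rpl24 and lies at chr11:58508791-58509261, minus strand, with 98.9% identity. Both are annotated as processed pseudogenes in GENCODE M21. The last 90 coding bases of each pair, from the reference transcripts, are shown because the read of a 3′ library that falls on them would have only the bases in capitals, where copy and parent differ, to tell the pair apart:
Gm11478: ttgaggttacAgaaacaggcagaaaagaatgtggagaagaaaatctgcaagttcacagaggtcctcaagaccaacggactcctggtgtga
Rpl13a: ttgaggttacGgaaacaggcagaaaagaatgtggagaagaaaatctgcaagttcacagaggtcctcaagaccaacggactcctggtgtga
Gm12254: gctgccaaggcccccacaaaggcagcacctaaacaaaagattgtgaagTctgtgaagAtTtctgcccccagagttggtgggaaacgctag
Rpl24: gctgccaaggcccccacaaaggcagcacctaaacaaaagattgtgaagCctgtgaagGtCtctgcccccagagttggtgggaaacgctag
Over these 90 bases the first pair differs at 1 position and the second at 3. Most other pairs could not be told apart there: of 14 pairs with such sequences 10 were identical, among them BC002163 with Ndufs5, Gm9843 with Fau and Rpl9-ps6 with Rpl9.

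Gm11478 stood at 3.63, 4.32, 6.34 and 5.74 log2 CPM in layer-marked neurons. Both late pools were above both early pools, and 14.8%, 11.3%, 46.4% and 31.2% of cells had a UMI of it, so the difference did not rest on a few cells. Its 4-pool change was 2.07 ± 0.33, not called by edgeR but called by DESeq2 (adjusted p = 2.1e-05). Late pool 2 alone was higher than the early pools by 1.75 ± 0.22 (adjusted p = 0.0162), and by 1.90, 1.95, 1.51 and 1.68 in Cux2, Rorb, Fezf2 and Foxp2 neurons, each called. The untrained control pools stood at 95 CPM in the pool of late pool 1's kit and 11.7 CPM in the other. Late pool 1 lay below the untrained control of its own kit, so kit and stage cannot be told apart for that pool.

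Gm12254 repeated this order, at 3.02, 4.12, 5.53 and 5.34 log2 CPM, with a 4-pool change of 1.79 ± 0.37. The parents had smaller differences of the same sign in the 4 pools, largest in late pool 1. Rpl13a stood at 6.37, 6.28, 7.70 and 6.51 log2 CPM, with both late pools above both early pools and a 4-pool change of 0.91 ± 0.39 (not called). Late pool 1 gave 1.38 and late pool 2 gave 0.18 ± 0.14 (adjusted p = 0.798). Rpl24 overlapped between stages (7.50, 6.80, 8.25 and 7.22), with 0.64 ± 0.41 in the 4 pools (not called), 1.06 for late pool 1 and 0.02 ± 0.23 for late pool 2.

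For counting, copies are here all genes annotated as a pseudogene of any type or named as one (-ps), and 16 of them were aligned to a parent. Copies so defined made up 5.93% of genes tested but 7 of the 13 called with late pool 2 in layer-marked neurons. The same counts were 2.94% and 11 of 19 in Cux2, 3.20% and 34 of 64 in Rorb, 4.04% and 56 of 96 in Fezf2, and 3.90% and 61 of 128 in Foxp2 neurons. All of these copies were higher in late pool 2 except 1 in Foxp2 neurons. Among protein-coding genes the calls were 2 up and 2 down in layer-marked, 4 up and 1 down in Cux2, 9 up and 12 down in Rorb, 4 up and 26 down in Fezf2, and 11 up and 39 down in Foxp2 neurons. How reads that match both copy and parent were counted is not given in the sources used here, so a copy's level is uncertain.

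**Figure D2:**
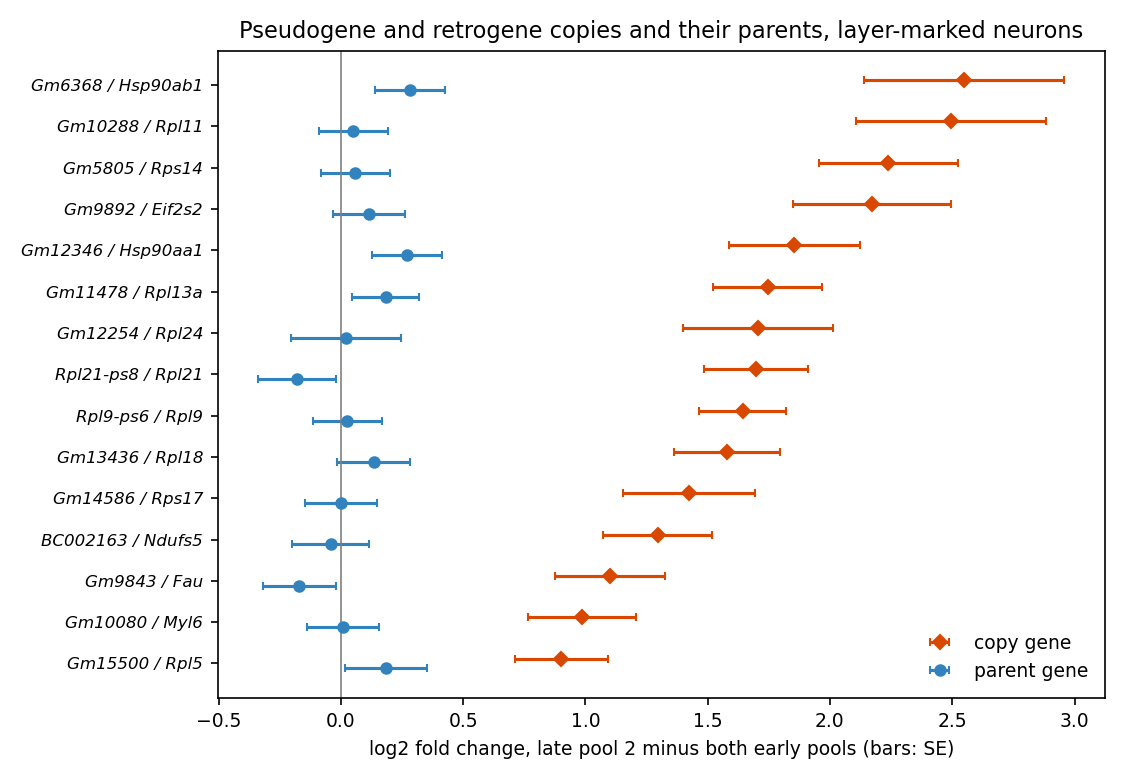
Log2 change of late pool 2 against both early pools (x axis, bars SE) for copies and their parents, 1 pair per line, in layer-marked neurons. The copies lie between 0.90 and 2.55 and their parents between -0.18 and 0.28. They are a few of the 1008 copies tested, a count that takes in pseudogenes of any type, and were chosen after their values were seen. Their place above 0 and apart from their parents is therefore no test of copies in general. Gm15427 is left out of the plot.

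Protein-coding genes with both late pools above both early pools were led by Nbl1, a secreted antagonist of bone morphogenetic proteins, at 5.04, 4.98, 5.80 and 5.65 log2 CPM in layer-marked neurons. Its 4-pool change was 0.72 ± 0.17 (unadjusted p = 0.00667, not called). In late pool 2 alone it rose in Rorb neurons (4.65, 4.49, 5.63 and 5.53 log2 CPM; 0.96, adjusted p = 0.0174), in Fezf2 neurons (4.24, 4.43, 5.11 and 5.35; 1.03, adjusted p = 0.00204) and in Foxp2 neurons (3.89, 4.28, 4.82 and 5.28; 1.23, adjusted p = 6.58e-06). Cux2 neurons, where it was most abundant (5.98, 5.68, 6.58 and 6.33), gave 0.48 (adjusted p = 0.491). Nbl1 had a UMI in 24.8%, 15.3%, 27.2% and 26.1% of layer-marked neurons. It was added to the named genes after its values were seen, as were S100b, Tnnc1, Wdr89 and Igf2bp3.

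Tnnc1, troponin C of slow muscle and heart, a calcium sensor, stood at 4.61, 4.89, 6.04 and 5.41 log2 CPM, a change of 1.01 ± 0.26 (not called). In Cux2 neurons (4.99, 5.15, 6.17 and 6.07 log2 CPM) it rose by 1.01 ± 0.16 in late pool 2 (adjusted p = 0.0368), and in Rorb neurons (5.54, 5.70, 6.72 and 6.60) by 0.99 (adjusted p = 0.00117). In both sets the late pools lay close to each other and clear of both early pools. No early pool was of late pool 1's kit, so kit and stage cannot be told apart for that pool. Fezf2 neurons gave 4.33, 4.69, 6.33 and 5.05 log2 CPM and Foxp2 neurons, with the lowest levels, 2.54, 2.48, 3.61 and 2.79. In these 2 sets late pool 2 differed by 0.56 (adjusted p = 0.33) and 0.29. Rorb neurons with a Tnnc1 UMI numbered 71, 91, 140 and 152.

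S100b, a calcium-binding protein known best from astrocytes, stood at 4.79, 4.91, 5.78 and 5.96 log2 CPM in Rorb neurons and rose by 1.12 ± 0.19 in late pool 2 (adjusted p = 0.00119). Cells with a UMI of it were 11.1%, 8.25%, 13.0% and 13.7% of Rorb neurons. Summed astrocyte markers, a list without S100b, stood in the same cells at 955 and 1103 CPM in the late pools and 1048 CPM in early pool 2, with early pool 1 the highest, so that the stages overlapped. The same list stood at 435, 313, 606 and 295 CPM in microglia marker cells. In all other cells kept it stood at 1801, 1518, 3079 and 1755 CPM. Whether the S100b UMIs came from astrocyte RNA was not tested. The change of late pool 2 was 0.66 in Cux2 neurons (adjusted p = 0.622) and 0.50 in Fezf2 neurons, and in Foxp2 neurons the stages overlapped (2.89, 3.08, 4.15 and 2.70). No test of a subtype difference called Nbl1, Tnnc1 or S100b.

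Wdr89, a WD repeat protein gene, stood at 5.02, 5.15, 6.55 and 5.80 log2 CPM in layer-marked neurons, with changes in late pool 2 of 0.80 in Rorb (adjusted p = 0.0494) and 0.70 in Foxp2 neurons (adjusted p = 0.0239). Igf2bp3, an RNA-binding protein, stood at 3.81, 4.10, 5.43 and 4.63 and was not called in late pool 2 in any of the 5 sets.

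Robo3, a receptor of the Roundabout family that steers commissural axons, was among the genes with both late pools below both early pools in layer-marked neurons. Robo3 stood at 4.48, 4.73, 3.96 and 3.80 log2 CPM, a change of -0.73 ± 0.20 (not called), and late pool 2 gave -0.82 ± 0.19 (adjusted p = 0.262). The order held in Cux2 neurons (5.54, 5.65, 4.90 and 4.92) and Rorb neurons (4.51, 4.75, 3.99 and 3.83). In Fezf2 neurons the gene was low and the stages overlapped (2.22, 2.79, 2.74 and 2.63). Mogs, the first glucosidase of N-glycan trimming, Snx25, a sorting nexin, Crocc, the rootletin of ciliary rootlets, and Plk5, a polo-like kinase family member, had 4-pool changes of -0.65, -0.59, -0.60 and -0.65, and of -0.55, -0.60, -0.75 and -0.60 with late pool 2. In Cux2 neurons Crocc (5.16, 5.12, 4.40 and 4.19 log2 CPM) gave -0.85 ± 0.21, and -0.96 ± 0.20 with late pool 2. None of these passed in the 4 pools or in late pool 2 alone.

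**Figure D3:**
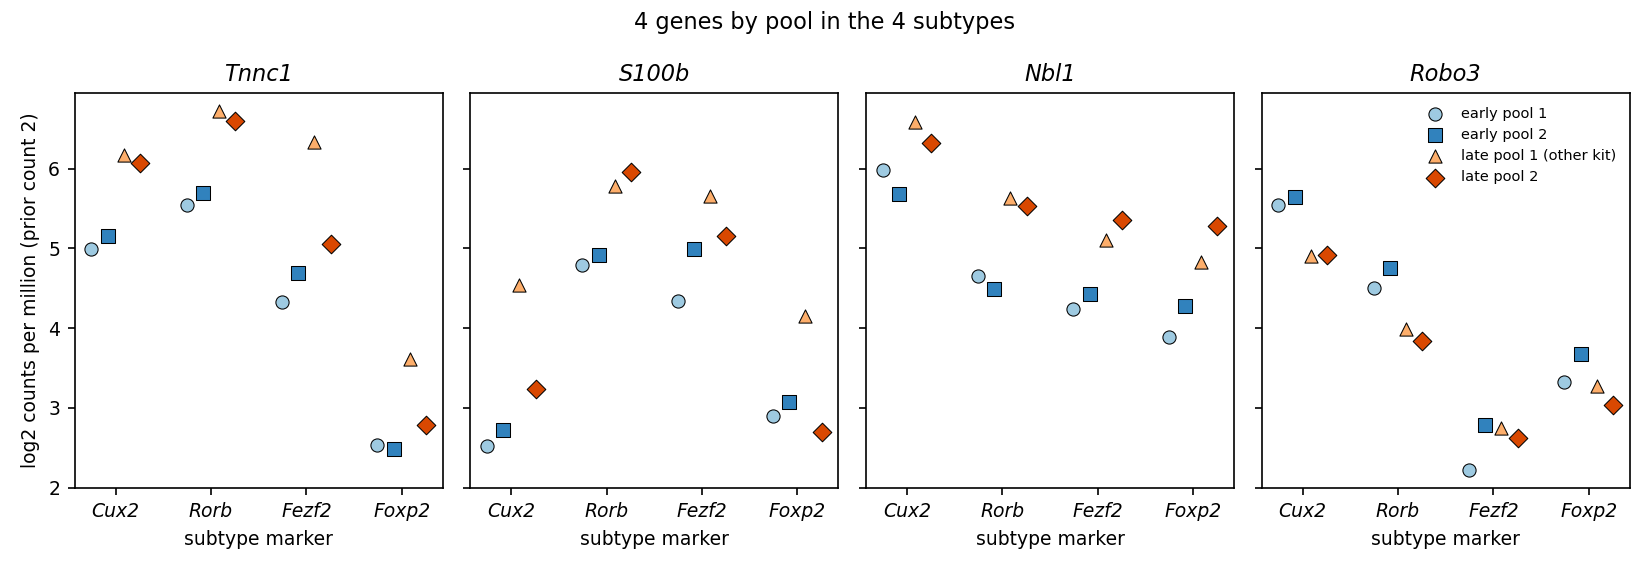
Level of Tnnc1, S100b, Nbl1 and Robo3 in the 4 subtypes, in log2 CPM (y axis), with 1 symbol per pool. Late pools lie above early pools for Nbl1 and Tnnc1 in every subtype and below for Robo3 in Cux2, Rorb and Foxp2 neurons.

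Rprm, a p53 target and layer 6 marker, fell in Rorb neurons of late pool 2. It stood at 7.72, 7.33, 6.70 and 6.62 log2 CPM, a difference of -0.93 ± 0.19 for late pool 2 (adjusted p = 0.00801), and late pool 1 lay beside it. The 10 layer 6 markers, Rprm among them, summed to 527, 410, 250 and 299 CPM in Rorb neurons, lower in both late pools. Rprm alone averaged 143 CPM over the 4 pools, so the fall of the sum is in part its own. The other markers were not summed apart from it. In Foxp2 neurons, where Rprm is most abundant, its values were 10.17, 10.19, 10.16 and 9.77 log2 CPM. Also in Rorb neurons, Prss12, the neurotrypsin protease that cleaves agrin, stood at 5.01, 4.38, 3.68 and 3.67 and Snx25 at 4.57, 4.71, 3.80 and 3.65, with adjusted p of 0.0605 and 0.0679 for late pool 2.

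In Fezf2 neurons the lowest p downward were those of Ncln, Lrrc24, Pnpla6, Slc17a6 and Grik1. Slc17a6, the subcortical vesicular glutamate transporter, stood at 4.87, 4.68, 3.78 and 4.31 log2 CPM, a change of -0.72 ± 0.26 (not called). Grik1, a kainate receptor subunit, had both late pools below both early pools in layer-marked neurons (3.92, 3.41, 3.15 and 3.24 log2 CPM) and in each subtype. In Foxp2 neurons it stood at 3.46, 3.12, 2.28 and 1.70 and fell by 1.72 ± 0.40 in late pool 2 (adjusted p = 0.00382). This rests on 86, 35, 27 and 21 UMIs in 39, 19, 16 and 16 Foxp2 neurons, and 5 cells of a pool held 29.1% to 51.9% of them. Its 4-pool changes were -0.41, -1.01, -0.61 and -1.37 in Cux2, Rorb, Fezf2 and Foxp2 neurons. In Foxp2 neurons Nr2f6, Kctd6, Lrrc24, Ncln and Thoc5 came first in the 4 pools, with changes between -0.74 and -0.58, none called.

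Lpcat4, an acyltransferase of phospholipid remodelling, fell in late pool 2 and rose in late pool 1. It stood at 6.03, 5.50, 6.47 and 4.11 log2 CPM in layer-marked neurons. Late pool 2 differed by -1.70 ± 0.22 (adjusted p = 0.0162) and late pool 1 by 0.67 (adjusted p = 0.0359), leaving a 4-pool change of -0.07 ± 0.70. The fall in late pool 2 was called in all 4 subtypes, with differences between -2.02 and -1.45.

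Some calls rested on very few cells. Mag and Cldn11, both myelin genes, had 49 of 50 and 54 of 55 UMIs of late pool 2 in 1 cell of the Foxp2 neurons. Hbb-bt, a beta globin of red blood cells, stood at 1.70, 2.92, 7.0 and 5.87 log2 CPM in Rorb neurons, with 637 of 789 UMIs of late pool 1 and 283 of 302 of late pool 2 in 1 cell each. Cldn5, the tight junction protein of brain endothelium, fell by 3.14 ± 0.42 in late pool 2 (adjusted p = 0.0197) on 105, 60, 24 and 10 UMIs, of which 43 and 52 in the early pools came from 1 cell each.

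No gene of the pathway lists was called in the 4 pools, and the medians of some lists differed in sign between the late pools. Cytoplasmic ribosomal protein genes had a higher late mean for 83 of 86 genes in layer-marked neurons, with a median change of 0.48 beside 0.00 over all genes. The median was 0.88 with late pool 1 and -0.05 with late pool 2. Nuclear-encoded oxidative phosphorylation genes repeated this, with 65 of 72 up, and medians of 0.23, 0.55 and -0.12 in the 4 pools, late pool 1 and late pool 2. With late pool 2 alone, 1 of 86 ribosomal genes was called in Rorb (Rpl38), 3 in Fezf2 (Rpl38, Rpl39 and Rps29) and 5 in Foxp2 neurons (these plus Rpl35 and Rps28), beside 0.456%, 0.649% and 0.89% of all genes tested. Of 72 oxidative phosphorylation genes, the complex subunit genes Atp5k in Rorb, Atp5k and Ndufa3 in Fezf2, and these plus Ndufa1 in Foxp2 neurons were called. All of these calls were downward, as were 12 of 21, 26 of 30 and 39 of 50 calls of protein-coding genes in the 3 subtypes. Rpl38 stood at 8.27, 8.01, 9.06 and 7.21 log2 CPM in Foxp2 neurons.

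Mitochondrially encoded transcripts were lower late in both late pools for 7 of 13 genes, with 12 of 13 below 0 and a median of -0.37 in layer-marked neurons (-0.25 with late pool 2 and -0.86 with late pool 1). Adding the control pools and kit as a term gave a median of only -0.076 for these genes in layer-marked neurons. In that setting the medians of the subtypes lay between -0.12 (Rorb neurons) and -0.06 (Cux2 neurons). The mitochondrial share of UMIs was 2.13%, 2.66%, 1.37% and 2.50%. mt-Nd3, a subunit of respiratory complex I, stood at 7.06, 7.72, 6.33 and 6.46 log2 CPM, a change of -1.03 ± 0.27 (unadjusted p = 0.00914). In late pool 2 alone mt-Nd3 fell by 0.93 in Fezf2 neurons (adjusted p = 0.00602) and by 0.95 in Foxp2 neurons (adjusted p = 2.14e-05). The exception, mt-Nd1, a subunit of the same complex, stood at 11.68, 11.51, 12.43 and 11.28 log2 CPM, highest in late pool 1 and lowest in late pool 2.

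Lists of channel and synapse genes had medians between -0.13 and -0.02 in the 4 pools. Potassium channels had 10 of 43 with a higher late mean and a median of -0.13, with -0.25 for late pool 1 and -0.03 for late pool 2. Kcnh3, a brain ether-a-go-go channel, was lower in both late pools (6.53, 6.46, 5.97 and 6.17 log2 CPM), and Kcnk2, the leak channel TREK, was higher (6.72, 6.68, 7.25 and 6.96). NMDA and kainate receptors had 3 of 13 up (median -0.12, with -0.40 for late pool 1 and 0.08 for late pool 2), with the obligate subunit Grin1 at 8.42, 8.24, 7.93 and 7.98 log2 CPM. GABA-A receptor subunits had 2 of 12 up (median -0.10, with -0.25 for late pool 1 and -0.01 for late pool 2). Synaptic adhesion genes had 13 of 46 up (median -0.08), but 28 of 46 with late pool 2 (median 0.04, against -0.23 for late pool 1). Axon guidance genes had 8 of 41 up (median -0.09, with -0.37 for late pool 1 and 0.08 for late pool 2). Synaptic vesicle release genes had 12 of 28 up (median -0.02, and -0.09 with late pool 2), and postsynaptic scaffolds and kinases 8 of 28 (median -0.07 in the 4 pools and with either late pool). In late pool 2 Kcnip1, a Kv4 channel partner, was called downward in Foxp2 neurons, on 66, 19, 34 and 11 UMIs.

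Malat1, a nuclear long non-coding RNA, rose in late pool 2 in Cux2 (14.11, 14.28, 14.19 and 14.98 log2 CPM; 0.78, adjusted p = 0.0302), Rorb (0.67, adjusted p = 0.00342) and Fezf2 neurons (0.50, adjusted p = 0.0174). Late pool 1 lay among the early pools in Cux2 neurons.

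**Figure D4:**
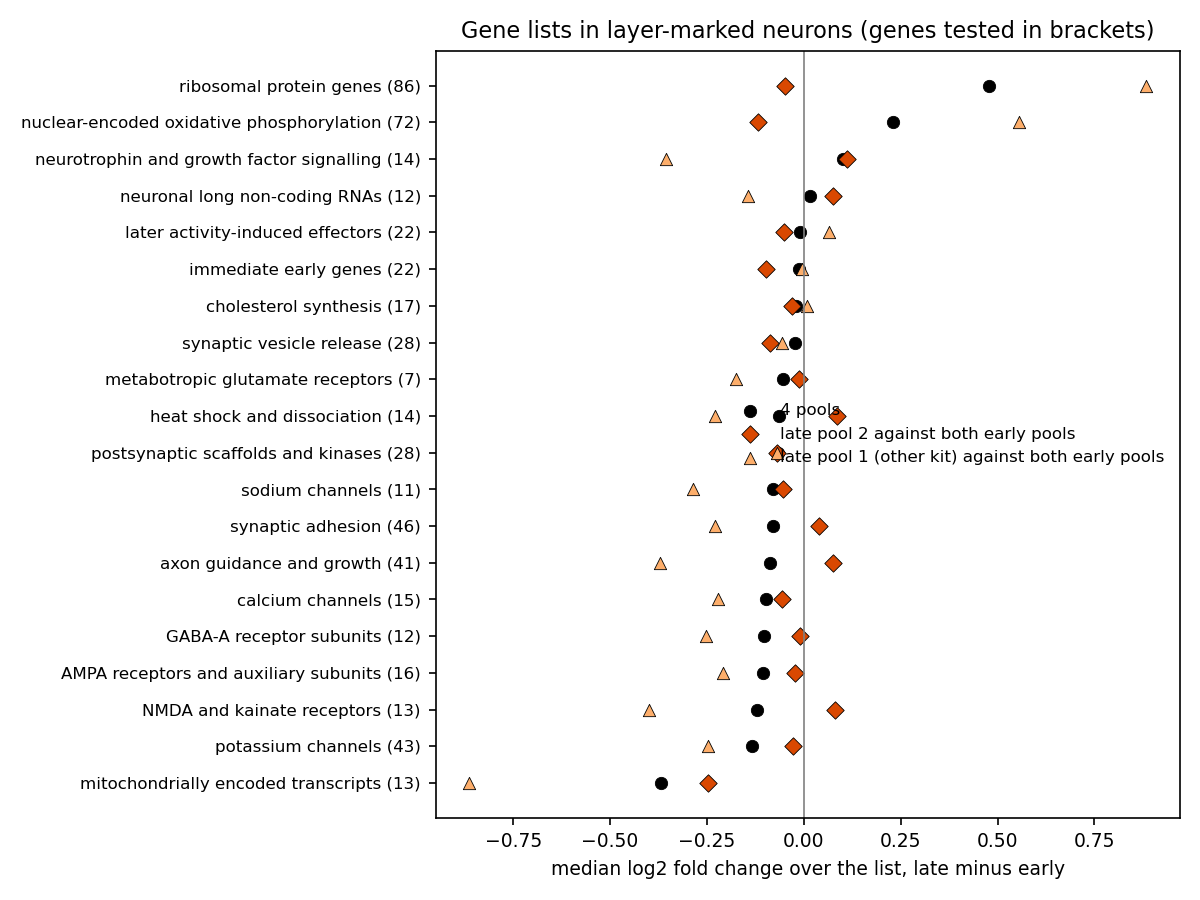
Median log2 change, late minus early (x axis), over each gene list in layer-marked neurons, for the 4 pools and for each late pool against both early pools. Ribosomal protein and oxidative phosphorylation medians are above 0 with late pool 1 and slightly below 0 with late pool 2.

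Late minus early changes of cholesterol synthesis genes were mostly positive in Cux2 and Rorb neurons and mostly negative in Fezf2 and Foxp2 neurons, none of them called. Neurons make part of their own sterol, under control of SREBP factors that are held back by Insig1. Of 17 genes, 15 had a higher late mean in Cux2 neurons (median 0.19) and 14 in Rorb neurons (median 0.11), against 2 in Fezf2 (median -0.14) and 3 in Foxp2 neurons (median -0.14). With late pool 2 alone the counts were 11, 10, 2 and 4, with medians of 0.09, 0.02, -0.14 and -0.13. No gene of the list was called in any set, and early pools are shared by all of these values.

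Nsdhl, a sterol dehydrogenase, stood at 3.29, 2.57, 4.01 and 3.63 log2 CPM in Cux2 neurons, both late pools above, a change of 0.87 (unadjusted p = 0.0423). Msmo1, a sterol demethylase, stood at 5.83, 6.0, 6.50 and 6.13 log2 CPM in Cux2 neurons, both late pools above. In Foxp2 neurons Msmo1 stood at 7.23, 7.34, 6.99 and 7.15 log2 CPM, both late pools below.

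Subtype differences themselves were tested in cells with exactly 1 marker, with the pool as a block. The change in Fezf2 neurons minus the mean of the other 3 subtypes was negative for 16 of 17 cholesterol genes (median -0.32, beside 0.01 over all genes), 7 of them at an unadjusted p under 0.05. The same contrast was positive for 15 of 17 in Cux2 neurons (median 0.15), 14 of 17 in Rorb neurons (median 0.19) and 6 of 17 in Foxp2 neurons (median -0.09), with 4, 3 and 2 at an unadjusted p under 0.05. The 4 contrasts of a gene sum to 0, so they are not independent. None of the 17 was called in any of these contrasts.

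**Figure D5:**
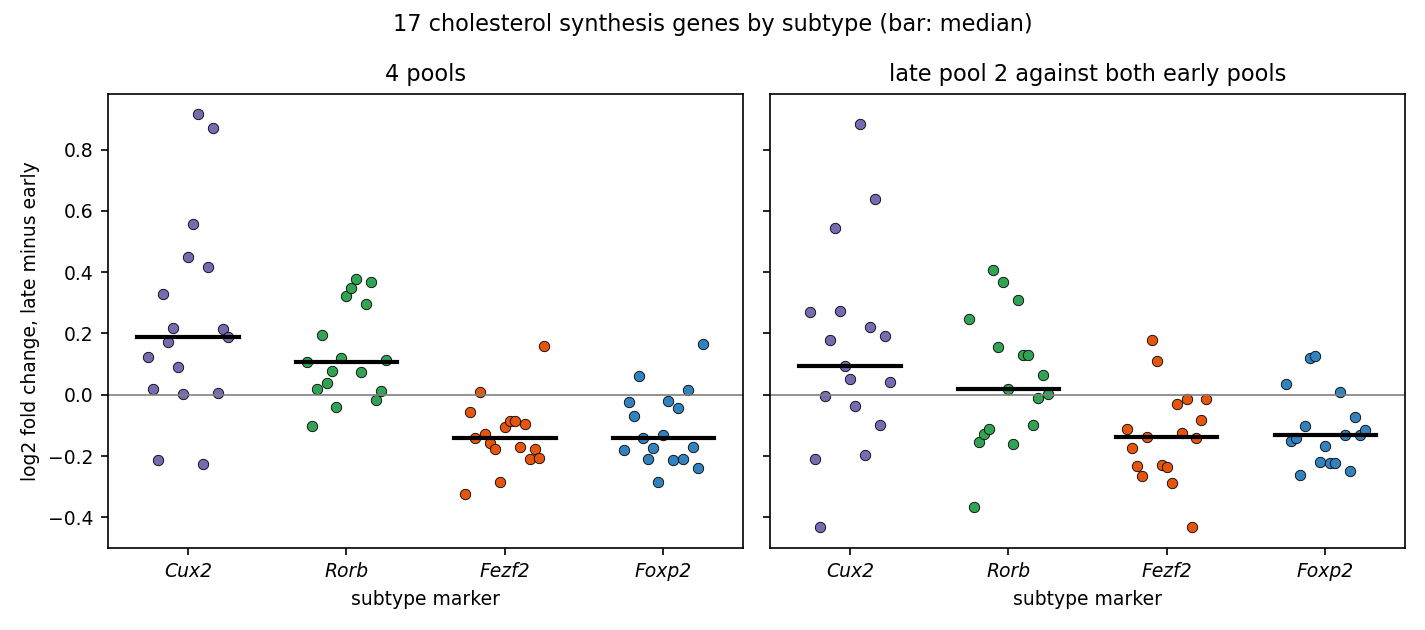
Log2 change, late minus early (y axis), of 17 cholesterol synthesis genes in the 4 subtypes, with 1 point per gene and a bar at the median, for the 4 pools (left) and late pool 2 against both early pools (right). Medians are above 0 in Cux2 and Rorb neurons and below 0 in Fezf2 and Foxp2 neurons in both panels.

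Over all 13216 genes tested, the contrasts called 0% in Cux2, 0.00757% in Rorb, 0% in Fezf2 and 0% in Foxp2 neurons. Before adjustment 485, 607, 540 and 520 genes had a p below 0.05, and 0 were called by DESeq2 in each. The 1 gene called was Apoe, the lipid carrier made mainly by astrocytes and microglia. In cells with Rorb alone it stood at 7.76, 5.90, 7.43 and 5.01 log2 CPM, a change of -0.61, against 0.69, 0.62 and 0.78 in Cux2, Fezf2 and Foxp2 neurons, and the difference was -1.37 ± 0.22 (adjusted p = 0.00974). Without early pool 1 it was -0.83 (adjusted p = 1.00) and without late pool 1 -1.56 (adjusted p = 0.0778). Without cells holding at least 2 non-neuronal UMIs it was -0.05 and with presumed doublets kept -0.43, neither called, and the call was also lost with at least 2 Slc17a7 UMIs required. In all Rorb neurons Apoe stood at 5.91, 4.99, 6.65 and 4.37 log2 CPM, highest in late pool 1, with a change of 0.40 ± 0.66. In all Rorb neurons 5 cells held 28.4% to 59.5% of a pool's Apoe UMIs, and 14.7%, 6.15%, 25.8% and 6.51% of cells had one.

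The genes nearest to a call in the other contrasts were Rn7sk, the small nuclear RNA that holds the P-TEFb elongation factor, and Sox4, a neuronal differentiation factor, both for Cux2 neurons (differences 0.79 and 0.77, adjusted p 0.0777 and 0.0957). Sox4 stood at 5.99, 6.27, 6.21 and 6.72 log2 CPM in Cux2 alone and at 5.72, 6.52, 4.65 and 5.80 in Foxp2 alone. For Foxp2 neurons Dusp6, a phosphatase of the ERK kinases, had both late pools below (6.69, 6.84, 6.38 and 6.28 log2 CPM), with a difference of -0.66 ± 0.14 (adjusted p = 0.52). Crym, a thyroid hormone binding protein of deep layers, gave -0.63 ± 0.14 (adjusted p = 0.52).

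Reaching uses mainly the hemisphere contralateral to the trained limb, so the contralateral minus ipsilateral difference was compared between stages in 8 libraries with the pool as a block. It called 3 of 15576 genes (0.0193%), with 753 at an unadjusted p under 0.05 and 0 by DESeq2. Nnat, neuronatin, an imprinted proteolipid gene, was lower contralaterally in both early pools (-0.76 and -0.99) and higher in both late pools (0.29 and 0.25). Its levels were 4.23, 3.00, 4.66 and 3.81 log2 CPM contralaterally and 4.99, 3.99, 4.38 and 3.57 ipsilaterally. The stage by hemisphere difference was 1.11 ± 0.17 (adjusted p = 0.00571), and with each pool left out in turn it lay between 1.04 and 1.29. Those fits leave 1 pool in a stage, so a call in them would be no support. In all 4 pools the difference was also called without cells holding at least 2 non-neuronal UMIs (1.63) and with presumed doublets kept (1.06). It was not called by DESeq2 (1.14) or in cells with exactly 1 marker (0.58). Between 67 and 119 cells of a pool held a Nnat UMI, and the 5 richest cells held 22.5% to 28.2% of them. Fezf2 neurons held 473, 90, 318 and 159 Nnat UMIs, against 17, 15, 48 and 10 in Cux2 neurons. The mean share of Fezf2 neurons was 39.7% contralaterally and 41.9% ipsilaterally late, and 37.9% and 37.0% early. Whether this share bears on the Nnat difference was not tested. The other 2 were the globins Hbb-bs (-2.22 ± 0.27) and Hbb-bt (-3.52 ± 0.45), neither of them called without cells of non-neuronal UMIs or with presumed doublets kept. For Hbb-bs, 5 cells held 31.8%, 87.9%, 81.5% and 90.2% of the UMIs of a pool. Synpr, a synaptic vesicle protein, gave 0.96 ± 0.21 without a call (adjusted p = 0.178).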

How the data were processed

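Raw UMI counts per gene and barcode were deposited by the authors for each library. Per the file headers Cell Ranger 3.0.2 made them, and per the submitters' processing notes 3.1.0, with GRCm38 (mm10). Cells were kept from 500 detected genes and 1000 UMIs upward when no more than 20% of UMIs were mitochondrial. Those with the highest Scrublet scores (scanpy 1.11.5) were removed as presumed doublets, 0.8% of passing cells for every 1000 barcodes of the library. Larger libraries thus lost a larger share, with 462 of 6837 and 481 of 7087 cells in late pool 1 against 141 of 3947 and 114 of 3550 in early pool 1. Counts were summed per pool and tested in edgeR 4.0.16 (R 4.3.3; TMM, filterByExpr, quasi-likelihood test, Benjamini-Hochberg adjustment), without the gate genes, and levels are log2 CPM with a prior count of 2. Contrasts between hemispheres or subtypes had the pool as a block. DESeq2 1.42.0, other size factors, filters, gates, hemispheres alone, added control pools with kit as a term, and each pool left out were alternatives. Detecting reporter cells by the tdtomato feature was added after seeing the data.

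Total UMIs in the layer-marked sums were 20219248, 12322873, 19453649 and 17484542. Shares used exact permutation tests over pools, and p-values of these and of the 4-pool fits measure the spread between pools of 2 mice. With late pool 2 alone there is no late spread, and the test leans on the 2 early pools and on dispersion shared across genes. In the hemisphere and subtype contrasts the pool is a block. Their p-values measure the spread of differences between sums of the same pools. Named genes were a fixed panel, up to 5 per direction with the smallest p among genes with a mean of at least 4 log2 CPM and late pools both on 1 side, up to 3 per direction in each contrast, and calls where these were 5 or fewer. Protein-coding repeats of that rule, and genes named for few cells or copies, were chosen after their values were seen. Subtypes, lists and tests were chosen with earlier results of these data known. The fits were tested on simulated counts, drawn from 1 mean per gene without a kit shift in late pool 1. There the 4-pool fit of layer-marked neurons called 23.7% of 2-fold and 83.2% of 4-fold changes. These rates do not carry over to the real 4 pools, where late pool 1 is of another kit. In the real fit 208 of 16660 genes had an unadjusted p below 0.05, and the smallest adjusted p was 0.9999. Changes of 2-fold and well above can therefore go uncalled. Copies were aligned to their parents with BLASTN 2.17.0 on GENCODE M21, in which 54079 of 54235 features matched by ID. Cells of other gates were not analysed here, and some genes are not reported here.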

Additional observations from a re-analysis of the deposited data

Results flagged for a closer look

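4 differences were singled out because a test of the difference itself passed. In cells with Rorb alone, the late minus early change of Apoe differed from the mean of the other 3 subtypes by -1.37 ± 0.22 (SE, adjusted p = 0.00974 by edgeR's quasi-likelihood test). It was lower in late in 1 of 4 subtypes. The contralateral minus ipsilateral difference in layer-marked neurons differed between late and early by 1.11 for Nnat (adjusted p = 0.00571), by -2.22 for Hbb-bs (adjusted p = 0.000156) and by -3.52 for Hbb-bt (adjusted p = 0.000282). For Nnat both late pools were positive and both early pools negative. In layer-marked neurons the 5 cells richest in Hbb-bs held 31.8%, 87.9%, 81.5% and 90.2% of its UMIs per pool. Summed astrocyte markers in Rorb neurons were 1123.85, 1048, 955 and 1103 CPM in early pools 1 and 2 and late pools 1 and 2, and summed microglia markers were 78.8, 58.3, 198 and 29.2 CPM. Apoe was highest in late pool 1 in all Rorb neurons and in early pool 1 in cells with Rorb alone, and its call was lost without early pool 1 (adjusted p = 1.00). Without cells holding at least 2 non-neuronal UMIs, Apoe gave -0.05 and was not called, and of the 3 hemisphere calls Nnat was left (1.63).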

How the results depend on the processing

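No paired analysis was possible because replicate numbers follow accession order and pair no early pool with a late pool. Of 5955 values of named genes recomputed under other settings, 4879 kept their call or, uncalled, stayed within their standard error, 595 stayed uncalled but moved further, 455 newly passed the threshold, 17 no longer passed and 9 changed sign with a call before or after. DESeq2 called 9 genes in layer-marked, 4 in Cux2, 3 in Rorb, 2 in Fezf2 and 3 in Foxp2 neurons, against 0 each, and 0 by hemisphere and 0 in the Rorb contrast, against 3 and 1. Unfiltered for low counts, the test gave 83 calls in Cux2, 69 in Rorb, 64 in Fezf2 and 52 in Foxp2 neurons, 33 by hemisphere, and 11, 30, 9 and 19 in the Cux2, Rorb, Fezf2 and Foxp2 contrasts. With the control pools added and kit as a term, 1 gene was called in Rorb neurons. In that setting 36 named changes in layer-marked, 30 in Cux2, 25 in Rorb, 25 in Fezf2 and 32 in Foxp2 neurons moved by more than their standard error, uncalled. Those that stayed within it numbered 52, 30, 33, 36 and 32. By hemisphere 1 call was left without cells holding at least 2 non-neuronal UMIs, and 0 in cells with exactly 1 marker. The Rorb contrast gave 0 calls with at least 2 Slc17a7 UMIs, 0 without cells of non-neuronal UMIs, 0 with presumed doublets kept and 5 under a stricter cell filter. The Fezf2 contrast gave 1 call with at least 2 Slc17a7 UMIs and 1 with presumed doublets kept. Where not otherwise stated the cause was not tested.

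Leaving out each pool in turn gave 0 to 2844 calls in layer-marked, 4 to 2717 in Cux2, 0 to 2305 in Rorb, 0 to 3089 in Fezf2 and 0 to 2678 in Foxp2 neurons, the highest always without late pool 2, when the remaining late pool is of the other kit. Without late pool 1 the counts were 13, 19, 64, 96 and 128, without early pool 2 they were 9, 39, 0, 23 and 2, and without early pool 1 they were 0, 4, 1, 0 and 0. The hemisphere comparison gave 19 to 70 calls, highest without late pool 1, and the contrasts 0 to 6 in Cux2, 3 to 14 in Rorb, 0 to 6 in Fezf2 and 1 to 6 in Foxp2 neurons. Changes that took both signs ran from -3.12 to 4.40 for Hbb-bs and -4.30 to 4.84 for Hbb-bt in Fezf2 neurons, -1.18 to 4.95 for Hbb-bs, -1.995 to 0.74 for Lpcat4 and -0.94 to 0.90 for Rpl38 in Foxp2 neurons, and -1.20 to 1.11 for Apoe in Rorb neurons. In layer-marked neurons they ran from -3.78 to 1.18 for Gm42418, -2.88 to 0.89 for Lars2 and -1.70 to 0.67 for Lpcat4. Differences in shares also took both signs, from -4.87 to 11.2 percentage points for Fezf2 neurons and -10.5 to 4.48 for wpre in layer-marked neurons. Depth limits genes of few UMIs, and 1 lone late pool is assumed to vary like the early pools.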
